A study of Mus musculus with 21 samples.

Results

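The subject is 5 RNA libraries, out of the 21 samples of the series, grouped by how strongly their cells expressed interferon-stimulated genes. The cells were cultured fibro-adipogenic progenitors (FAPs), the mesenchymal cells of mouse skeletal muscle. The libraries were chosen by measured values: the CPM (counts scaled to a common library size, here the column total) of Ifit1, Ifit3, Isg15, Rtp4, Usp18 and Oasl2 were summed in each library, and a library whose sum was under 500 was called low. The sum was 118 in the library labelled WT replicate 3 and 113 in the library labelled Prdm16 replicate 2, the 2 low libraries. The 3 high libraries had sums of 2139 (labelled WT replicate 1), 2593 (WT replicate 2) and 2176 (Prdm16 replicate 1). The nearest values on either side of the limit were therefore 118 and 2139. This grouping mixes the genotype labels, with WT and Prdm16 libraries on both sides.

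Both genotypes were adult mice with floxed Prdm16 alleles on both chromosomes. Those called Prdm16 (Prdm16Flox/Flox::PdgfrαCre-ERT/+) also carried a tamoxifen-inducible Cre at Pdgfra, a receptor gene that FAPs express, and those called WT (Prdm16Flox/Flox::Pdgfrα+/+) carried no Cre, so the WT mice are floxed controls. Per the labels, all mice had 5 daily tamoxifen injections, rested for 7 days and received cardiotoxin, a toxin that makes muscle regenerate. FAPs were sorted 5 days after the injury and grown on coated dishes for 4 to 5 days, so the RNA is that of cultured cells. Polyadenylated RNA was read by SMART-seq2, a full-length cDNA method. Whether each replicate is another animal is not in the labels.

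Type I interferons bind a receptor made of Ifnar1 and Ifnar2, and the kinases bound to it activate transcription factors that bind a promoter sequence called the interferon-stimulated response element (ISRE). The genes switched on in this way block viral replication, present antigen and recruit leukocytes, and they include factors of the response itself, such as Irf7. FAPs expand after muscle injury, lay down matrix, release factors that act on muscle stem cells and can become adipocytes or fibroblasts.

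The libraries differed in a few general measures. Totals were 10657791, 7053114 and 8448654 counts in the high libraries (WT replicates 1 and 2, Prdm16 replicate 1) and 10284864 and 5839587 in the low libraries (WT replicate 3, Prdm16 replicate 2), and every list of 3 and 2 values below follows this order. Mitochondrially encoded RNA took 1.40% to 2.32% of counts, with the groups overlapping. The low library labelled Prdm16 replicate 2 stood apart in sex-linked genes, with 15 counts of Xist against 3483 to 4652 in the other 4 libraries and 1322 counts of Y genes against 0 to 4. Ptprc, Pecam1 and the T cell gene Cd3e, which define leukocytes, endothelium and T cells, had at most 4 counts in any library, while Pdgfra and Ly6a, which define FAPs, were at 469.9 CPM or more in all of them. In RNA from a whole culture, fewer cells of a type and less RNA per cell cannot be told apart.

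Because interferon genes chose the libraries, their values are a description and carry no test. Here and below, library sizes for CPM were adjusted by edgeR's TMM factors, and differences are on the log2(CPM) scale with a prior count of 2. Ifit3, which helps block viral RNA, stood at 488, 765 and 554 CPM in the high libraries and at 20.8 and 22.1 CPM in the low. Isg15, a ubiquitin-like protein attached to other proteins, stood at 433, 367 and 328 against 20.6 and 10.1 CPM. Irf7, the factor that amplifies the response, stood at 311, 276 and 228 against 10.4 and 24.3 CPM. For each of these genes the lowest high library lay well above the highest low library.

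A list of 282 interferon genes, assembled by hand and not complete, was used to set this response aside. Of the 228 that passed the expression filter, 187 were lower in both low libraries than in any high library, 39 overlapped and 2 were higher, with a median difference of -1.79. The 2 higher were Irf8 (1.68), a factor of myeloid cells at 17 counts or fewer in every library, and Wars (0.22), a tRNA synthetase. Transcripts of 21 interferon genes themselves summed to 1, 4 and 8 counts in the high libraries and 0 and 2 counts in the low, and Ifnb1 had 1, 1 and 1 against 0 and 0. Counts this small allow no order between the groups. The receptor genes were present throughout: Ifnar1 stood at 91.6, 89.7 and 94.7 against 91.7 and 97.2 CPM and overlapped, and Ifnar2 at 74.0, 95.1 and 65.0 against 43.1 and 56.8 CPM did not.

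Promoters of 3 of the genes that chose the libraries are shown because they carry the element by which the factors of the pathway recognise interferon-stimulated genes. Each line is 100 of the 250 bases before the RefSeq start (GRCm38.p6), 5′ to 3′ on the gene's strand, and capitals mark matches to the ISRE core GAAANNGAA on either strand, overlapping matches running together. Ifit1 lies at chr19:34640759-34640858 on the plus strand with 3 matches, Ifit3 at chr19:34583381-34583480 on the plus strand with 2 matches, and Isg15 at chr4:156200831-156200930 on the minus strand with 3 matches.
Ifit1: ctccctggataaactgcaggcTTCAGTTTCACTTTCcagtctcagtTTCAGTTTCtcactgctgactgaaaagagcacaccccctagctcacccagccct
Ifit3: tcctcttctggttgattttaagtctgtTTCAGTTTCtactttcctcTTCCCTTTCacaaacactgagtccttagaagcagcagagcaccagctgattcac
Isg15: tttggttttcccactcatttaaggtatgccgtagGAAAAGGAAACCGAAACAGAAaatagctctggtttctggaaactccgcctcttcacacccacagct
The core was found within 250 bases before the start in 7.16% of the 27025 genes in the promoter table. Of the 6 genes that chose the libraries 4 had a promoter in the table and 3 of those held the core. A promoter was found for 180 of the 228 interferon genes (78.9%), which is too few for a share over the list.

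By the labels, no gene passed the test of genotype. With edgeR's quasi-likelihood test of WT against Prdm16, the adjusted p was under 0.05 for 0 of 15240 genes (0.0%), while the unadjusted p was for 377, and DESeq2 called 1 gene. The authors' deposited table holds 471 called genes, 123 up and 348 down, but at a looser limit. Mvk, for example, is called down there at a DESeq2 adjusted p of 0.0957. The count of 471 is therefore not at the limit of 0.05 used for the labels. DESeq2 p-values were compared with those in the authors' deposited table for the 14523 genes with a mean normalized count of at least 10. Those computed for low against high libraries lay within 1% of the deposited p for 14523 of 14523 genes. Those computed for the labelled genotypes did so for 167 (1.15%). The comparison in the authors' deposited table thus follows the low and high libraries of the deposited counts, not their labels. Whether the labels of the count table or the authors' deposited comparison assign the genotypes rightly cannot be told from these files, so whether low against high is also a difference of genotype is not known. Libraries are named by their labels throughout, and "within the WT label" means as labelled. Prdm16 itself, the floxed gene, does not settle it: it stood at 16.4, 13.4 and 10.6 CPM in the high and at 5.49 and 15.2 CPM in the low libraries, overlapping by either grouping, and a count over the whole gene does not show whether the floxed part was deleted. In the authors' deposited table, 146 of the genes called down and 1 called up are in the interferon list. Beyond the list, the authors' deposited table calls 122 genes up (2.02% of the 6046 with an adjusted p) and 202 down (3.34%).

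The genes beyond interferon, meaning those outside the interferon list, are the subject of the rest. Because the list is not complete, some of them can still belong to the response that chose the libraries. Of 15012 genes, 2024 (13.5%) were higher in both low libraries than in any high library and 1966 (13.1%) were lower in both. Counting both directions together, 3990 genes did not overlap between low and high libraries, beside 2702 (18.0%) by the labels. With a difference of at least 2-fold in addition, 429 genes (2.86%) were higher in the low libraries and 407 (2.71%) were lower. These counts changed when a library was left out. Without WT replicate 1 they were 334 and 409, without WT replicate 2 622 and 436, and without WT replicate 3 743 and 497. Without Prdm16 replicate 1 they were 891 and 655, and without Prdm16 replicate 2 they were 802 and 1042. With fewer libraries an absence of overlap is easier to meet, so a rise does not show what a single library contributes. The median over all 15012 genes was 0.01, and the TMM scaling itself centres most genes alike.

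Beyond interferon genes, the low libraries were not each other's nearest. The correlation of log2 CPM across genes (genes are not independent replicates) was 0.961 between the 2 low libraries, 0.964 between WT replicate 3 and the high library Prdm16 replicate 1, and 0.968 between the 2 libraries labelled Prdm16. The pair with the highest correlation was WT replicate 2 and Prdm16 replicate 1, at 0.974, both high.

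**Figure D1:**
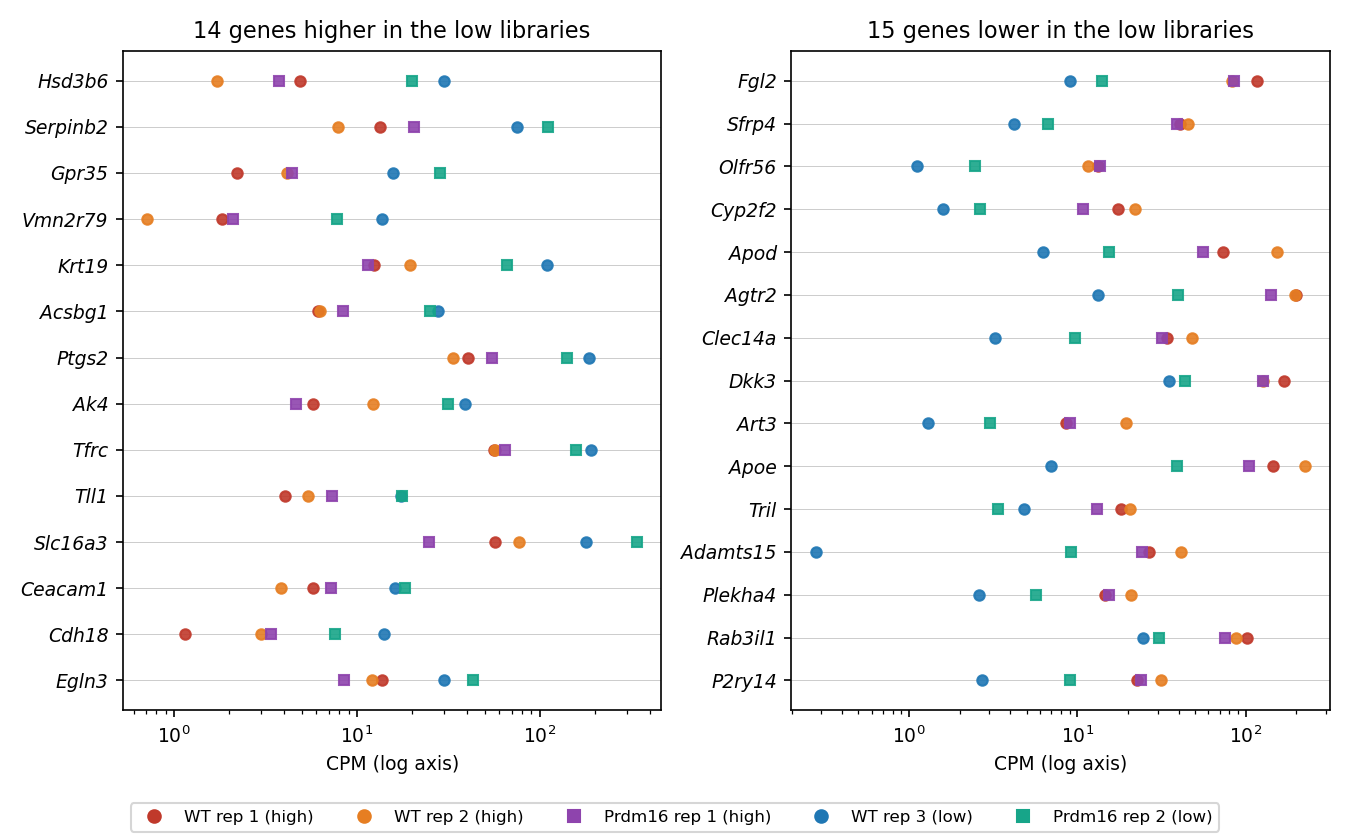
Expression in CPM (log axis) of the genes beyond the interferon list named for the widest gap above (14, left) and below (15, right), with 1 point per library. In every row the 2 low libraries lie on one side of the 3 high libraries, from Hsd3b6 and Fgl2 at the top to Egln3 and P2ry14 at the bottom.

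Among the genes higher in the low libraries, those with the widest gap between the groups encoded an enzyme, a protease inhibitor and receptors. Hsd3b6, a hydroxysteroid dehydrogenase (chromosome 3, 98805504 to 98814443), stood at 4.89, 1.71 and 3.72 CPM in the high libraries and at 29.8 and 20.0 CPM in the low. Serpinb2 (chromosome 1, 107500892 to 107525600) stood at 13.3, 7.86 and 20.5 against 75.0 and 111 CPM. It is an inhibitor of plasminogen activators, the proteases that start fibrin breakdown. Its difference was 2.80 on the log2 scale, 2.85 within the WT label and 2.43 within the Prdm16 label, with no overlap of the groups.

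Ptgs2, the inducible cyclooxygenase that makes prostaglandin precursors, stood at 40.3, 33.6 and 54.8 against 185 and 141 CPM. Tfrc, the transferrin receptor that brings iron into cells, stood at 55.9, 57.1 and 64.7 against 191 and 157 CPM. Krt19, a keratin usually found in epithelium, stood at 12.4, 19.4 and 11.5 against 109 and 66.0 CPM. For these 3 genes the groups lay apart, with the low library labelled WT replicate 3 the highest. The remaining higher genes were Gpr35, Vmn2r79, Acsbg1, Ak4, Tll1, Slc16a3, Ceacam1, Cdh18 and Egln3, with differences from 1.62 to 2.67. Vmn2r79 belongs to a large family of vomeronasal receptors with similar sequences, which makes its count uncertain. All genes named in these paragraphs as higher are called up in the authors' deposited table.

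The genes lower in the low libraries included several secreted proteins. Fgl2, a fibrinogen-like protein that restrains T cells (chromosome 5, 21372673 to 21378386), stood at 117, 82.6 and 85.7 CPM in the high libraries and at 9.02 and 14 CPM in the low. Sfrp4 (chromosome 13, 19623175 to 19632825), a secreted protein that binds Wnt ligands, stood at 40.6, 45.3 and 39.2 against 4.18 and 6.73 CPM. Dkk3, of a family of Wnt antagonists, stood at 169, 127 and 127 against 35.0 and 43.7 CPM. In each of them the groups lay well apart, and within-group values differed by less than 2-fold. Fgl2 lies inside Ccdc146 in the RefSeq annotation, and the counting is not stated to use strand.

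The apolipoproteins Apod and Apoe, carriers of lipid, were lower too. Apod stood at 73.2, 153 and 55.6 against 6.23 and 15.4 CPM and Apoe at 146, 226 and 105 against 6.97 and 39.3 CPM. Agtr2, a receptor of angiotensin (chromosome X, 21484624 to 21488833), stood at 200.2, 198 and 142 against 13.2 and 39.8 CPM. For these 3 genes the low libraries were unequal: the one labelled WT replicate 3 was the lower, down to -4.66 within the WT label for Apoe against -1.41 within the Prdm16 label. The other lower genes were Olfr56, Cyp2f2, Clec14a, Art3, Tril, Adamts15, Plekha4, Rab3il1 and P2ry14, with differences from -3.77 to -1.66. The -3.77 was that of Adamts15, whose low libraries were unequal at 0.279 and 9.20 CPM. Its difference was -6.02 within the WT label and -1.36 within the Prdm16 label. The body of Art3 overlaps the interferon genes Cxcl10 and Cxcl11, and Olfr56 is an olfactory receptor with similar copies, so both counts are uncertain. The authors' deposited table calls 13 of the 15 down and does not call Apoe and Adamts15.

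Glycolysis genes were higher in the low libraries. Glycolysis turns glucose into pyruvate, and cells short of oxygen turn the pyruvate into lactate and export it. Of 23 glycolysis genes, all of which passed the filter, 16 were higher in both low libraries than in any high library and 0 lower, with 7 overlapping and a median difference of 0.78, beside 13.5% higher and a median of 0.01 over all genes beyond interferon. The median was 0.61 within the WT label and 1.13 within the Prdm16 label. Summed over the list, the level was 8262, 10725 and 7509 CPM in the high libraries and 13618 and 15766 CPM in the low.

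Slc16a3, which exports lactate, stood at 56.9, 76.8 and 24.8 CPM in the high libraries and at 179 and 339 CPM in the low. Pdk1, the kinase that keeps pyruvate out of the mitochondrial cycle, stood at 35.8, 30.1 and 12.3 against 87.8 and 72.8 CPM. Pgk1, an enzyme of the pathway itself, stood at 176, 224 and 132 against 387 and 348 CPM. For all 3 the lowest library was Prdm16 replicate 1, a high library. Pfkl, the phosphofructokinase of liver type, and Pfkfb3, which makes its activator, differed by 1.19 and 1.23. Aldoa at 1391, 2071 and 1239.5 against 2031 and 2507 CPM and Eno1 at 968, 1245 and 638 against 1205 and 1137 CPM overlapped, with WT replicate 2 among the high values of both. Slc16a3 overlaps Csnk1d in RefSeq, and reads of the 2 genes cannot be told apart without strand.

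The hypoxia response genes were chosen as targets of Hif1a and Epas1, the oxygen-sensitive factors that Egln enzymes mark for destruction when oxygen is present. Of the 34 that passed the filter, out of 36 listed, 18 (52.9%) were higher in both low libraries and 0 lower, beside 13.5% and 13.1% over all genes beyond interferon. The median was 0.71 (0.35 within the WT label and 1.18 within the Prdm16 label). Egln3 stood at 13.7, 12.1 and 8.49 CPM in the high libraries and at 29.8 and 43.2 CPM in the low. Ak4, a mitochondrial adenylate kinase, stood at 5.75, 12.3 and 4.65 against 38.9 and 31.5 CPM, and Ankrd37 at 5.46, 6.28 and 2.33 against 11.4 and 14.7 CPM. Stc2, a secreted glycoprotein, differed by 1.08. The groups overlapped for Hif1a itself, at 810.1, 353 and 432 against 405 and 403 CPM, and for Lox, the enzyme that crosslinks collagen, which was high in Prdm16 replicate 2 alone (1012, 1159.9 and 857 against 944 and 2509.6 CPM). The RNA of Hif1a is not the measure of its activity, which depends on the protein. The culture conditions of single libraries, such as cell density, are not in the labels, and their part in these values was not tested.

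**Figure D2:**
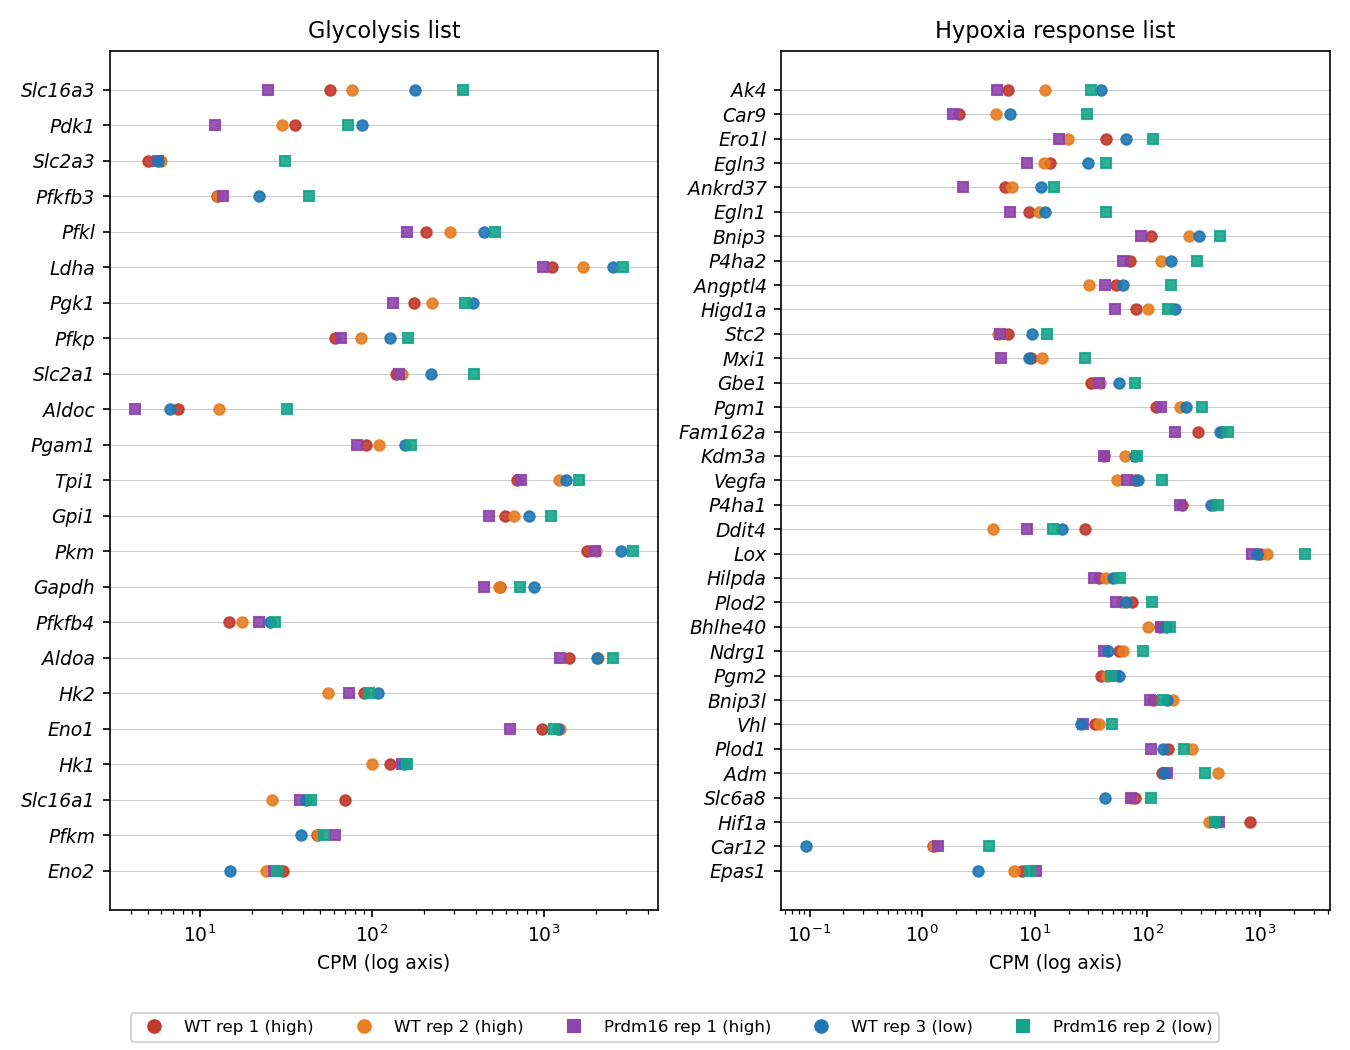
Expression in CPM (log axis) of the glycolysis list (left) and the hypoxia response list (right), with 1 point per library and genes ordered by their difference. The 2 low libraries lie above the 3 high libraries in 16 of 23 glycolysis and 17 of 33 hypoxia genes drawn, and the Prdm16 replicate 2 library is often the highest.

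Promoters of 2 of these genes are shown because they hold ACGTG, the core of the hypoxia response element that Hif1a binds. Each line is again 100 of the 250 bases before the RefSeq start (GRCm38.p6), 5′ to 3′ on the gene's strand, with matches on either strand in capitals. Slc16a3 is at chr11:120948967-120949066 on the plus strand, with 2 matches, the nearer at position -14 from the start, and Egln3 at chr12:54204025-54204124 on the minus strand, with a match at position -229.
Slc16a3: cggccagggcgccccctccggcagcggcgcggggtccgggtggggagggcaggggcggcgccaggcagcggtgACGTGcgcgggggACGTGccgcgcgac
Egln3: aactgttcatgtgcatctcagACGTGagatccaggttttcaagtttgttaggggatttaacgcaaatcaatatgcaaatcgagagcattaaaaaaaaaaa
Among the 22 of 23 glycolysis genes with a promoter in the table, 9 (40.9%) held the core within 250 bases before the start, beside 16.6% of all 27025 genes. The 27025 include genes that did not pass the filter. Outside the interferon list and the 2-fold genes, 14176 genes passed, and 9885 of them (69.7%) had a promoter. Of these, 22.1% held the core, a closer but incomplete background. For the hypoxia response list only 25 of 34 genes (73.5%) had a promoter, so no share is given. A match of these letters is not evidence of binding.

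Cholesterol synthesis genes were lower in the low libraries by a small amount. Of 24 genes, 15 were below every high library in both low libraries and 0 above, beside 13.1% over all genes beyond interferon, and the median was -0.37 (-0.55 within the WT label and -0.19 within the Prdm16 label). Mvk, which phosphorylates mevalonate, stood at 111, 104 and 107 CPM in the high libraries and at 61.3 and 72.4 CPM in the low. Hmgcs1, which makes the precursor of mevalonate, stood at 249.6, 302 and 312 against 160.3 and 222 CPM. Pmvk, a kinase, and Tm7sf2 and Dhcr7, sterol reductases, differed by -0.48, -0.79 and -0.36, and none of the 24 differed by 2-fold without overlap. Without WT replicate 3 the median was -0.17 and without Prdm16 replicate 2 it was -0.59.

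Most adipogenic genes overlapped. Of 25 that passed the filter, 17 overlapped, 7 (28%) were lower in both low libraries and 1 (4%) higher, beside 13.1% lower and 13.5% higher over all genes beyond interferon. The median was -0.52, of -0.90 within the WT label and of -0.16 within the Prdm16 label. Without WT replicate 3 it was -0.11, and without Prdm16 replicate 2 it was -0.92. Lpl, the lipase that frees fatty acids for uptake, stood at 329, 765 and 279 against 59.5 and 184 CPM. Dlk1, a surface protein of preadipocytes, stood at 39.0, 28.9 and 18.5 against 11.2 and 6.90 CPM, and Adipoq, the adipocyte hormone adiponectin, at 3.55, 10.1 and 5.47 against 0.186 and 1.59 CPM. Pparg, the regulator of fat cell formation, was lower by a narrow margin at 30.6, 46.4 and 33.4 against 18.5 and 29.2 CPM, and the lipid droplet gene Plin2 overlapped. The 7 included Cfd and Cd36, both below 4 CPM in every library. The higher gene was Klf4 (0.62), named after its value was seen.

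Of 29 FAP identity genes 17 overlapped, 8 (27.6%) were lower in both low libraries and 4 (13.8%) higher, the latter near the 13.5% higher over all genes beyond interferon, where 13.1% were lower. The median of -0.19 was 0.09 without WT replicate 3. Pi16, a marker of a progenitor-like subset of fibroblasts, stood at 38.3, 26.3 and 31.2 CPM in the high libraries and at 2.79 and 12.6 CPM in the low. Ly6a, a surface marker by which FAPs are commonly sorted, stood at 1361, 1696 and 1208 against 758 and 769.9 CPM, and Pdgfra at 819, 947 and 758 against 469.9 and 585 CPM. Hic1, a repressor found in quiescent mesenchymal progenitors, stood at 54.4, 36.4 and 25.2 against 12.3 and 17.7 CPM. On the other side, Sema3c, a secreted guidance protein, stood at 99.9, 80.0 and 71.5 against 179 and 263 CPM and Ugdh, which makes the sugar for hyaluronan, at 349, 449 and 518 against 728 and 762 CPM. Fbn1 and Gsn overlapped. The other 2 higher members were Smoc2 (0.51) and Has1 (0.72), named after their values were seen. Ly6a belongs to a family of similar genes and is itself in the interferon list.

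Matrix genes did not move as a block. Of 22 collagen genes, 2 (9.09%) were higher in both low libraries and 6 (27.3%) lower, beside 13.5% and 13.1% over all genes beyond interferon, and the medians were -0.53 within the WT label and 0.23 within the Prdm16 label. The collagen VI chains Col6a1, Col6a2 and Col6a3, which form microfibrils around cells, differed by -1.19, -1.65 and -1.05. Col12a1, which decorates collagen I fibres, was higher at 27.1, 29.3 and 24.9 against 52.8 and 76.5 CPM, and the other higher member was Col4a1 (0.53), a basement membrane chain named after its value was seen. The main fibre chains overlapped, with Col1a1 at 1675, 1702 and 1592 against 1151 and 2288 CPM and Col1a2 at 1771, 2300.3 and 1911 against 1417 and 2474 CPM. In both of them WT replicate 3 was the lowest library and Prdm16 replicate 2 the highest.

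Among 22 elastic fibre genes 2 (9.09%) were higher and 3 (13.6%) lower, no more than the 13.5% higher and close to the 13.1% lower over all genes beyond interferon. Eln, elastin itself, stood at 6.42, 4.28 and 3.26 against 0.279 and 0.885 CPM and Mfap2, a microfibril protein, at 109, 63.4 and 57.1 against 19.4 and 29.7 CPM, while Loxl4 and Fbln2 were higher by 1.27 and 0.70. The third lower gene was Emilin1 (-0.47). Of 28 matrix proteases and inhibitors 4 (14.3%) were higher, near the 13.5% over all genes, and 7 (25%) lower. The median of -0.32 was -0.80 within the WT label and 0.13 within the Prdm16 label. Without WT replicate 3 it was 0.06. Mmp2, a gelatinase, stood at 1952, 612 and 609 against 271 and 382 CPM, with WT replicate 1 far above the rest. Timp1, an inhibitor of such proteases, stood at 374, 309 and 394 against 637 and 785 CPM, higher in both low libraries, as were the metalloproteases Mmp13 (1.38) and Mmp15 (0.12), named after their values were seen. Timp1 and its relative Timp4 (-3.18) overlap Syn1 and Syn2 in the annotation.

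Genes of the TGF-beta pathway, which drives fibroblasts to make matrix, mostly overlapped. Of 36, 4 (11.1%) were higher and 4 (11.1%) lower, under the 13.5% and 13.1% over all genes beyond interferon. The median of 0.02 was -0.21 without Prdm16 replicate 2 and -0.07 without WT replicate 2. Inhba, a subunit of the ligand activin, stood at 263, 146 and 250.1 against 533 and 580.4 CPM, and Ccn2, a matricellular target of the pathway, at 321, 576 and 457 against 775 and 1041 CPM. Tgfb2, a ligand, stood at 45.9, 56.7 and 31.9 against 9.39 and 16.6 CPM. Tgfbi and the co-receptor Tgfbr3 differed by -1.37 and -0.86, and Ltbp1 and Fstl1 overlapped. The remaining members without overlap, named after their values were seen, were Smad2 (0.25), Fst (0.20) and Id3 (-0.41). Marker genes of smooth muscle and myofibroblasts were mostly higher: 7 of 12 (58.3%, beside 13.5% over all genes), with 1 lower (Fap, -1.36) and a median of 0.66. Tagln stood at 5.27, 8.71 and 7.68 against 33.1 and 11.2 CPM, and Tpm1 and Cald1 differed by 0.45 and 0.46, while Acta2 overlapped. Their medians within the labels were 0.70 and 0.49.

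Of 31 growth factor genes of muscle repair 10 (32.3%) were higher in both low libraries and 2 (6.45%) lower, beside 13.5% and 13.1% over all genes beyond interferon, with a median of 0.36. The median was 0.21 without WT replicate 2 and -0.00176 without Prdm16 replicate 2. Hbegf, a ligand of the EGF receptor, stood at 39.1, 32.9 and 36.5 against 78.9 and 91.5 CPM and Fgf2 at 98.7, 74.3 and 116 against 153 and 255 CPM. Thbs1, which activates latent TGF-beta, stood at 899, 1213 and 856 against 1611 and 2154 CPM, and Igfbp5 and Pdgfc differed by 1.29 and 0.84. Spp1, which encodes osteopontin, overlapped at 7876, 8022 and 11029 against 5604 and 14904 CPM. The antioxidant list held 8 of 27 (29.6%) higher and 2 (7.41%) lower, among them Txnrd1 at 97.5, 53.4 and 93.3 against 167 and 172 CPM and Nqo1 at 59.3, 66.4 and 58.6 against 133 and 94.5 CPM, both enzymes of the NRF2 response, although the median of the list was -0.04 (0.07 without WT replicate 3). The 2 lower genes of each of these lists, named after their values were seen, were Kitl (-0.26) and Angpt1 (-0.71) among growth factors and Sod2 (-0.15) and Gstm1 (-0.66) among antioxidant genes.

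Chemokines and inflammatory mediators differed in both directions. Of 34 that passed the filter, 13 (38.2%) were below every high library in both low libraries and 8 (23.5%) above, each share over the 13.1% and 13.5% of all genes beyond interferon. The median was -0.50 and was -0.26 without WT replicate 3. Ccl8 stood at 129, 86.0 and 92.2 against 12.6 and 40.4 CPM and Ccl11, which attracts eosinophils, at 127, 135 and 118 against 8.28 and 58.8 CPM. Il1rn, the antagonist of interleukin 1, stood at 101, 75.7 and 51.3 against 9.39 and 27.4 CPM and Lcn2, an iron-sequestering protein of innate immunity, at 9.39, 9.28 and 7.10 against 1.49 and 4.25 CPM. Ccl2 and Il33 overlapped, and Ptgs2 (above) was the member with the widest gap upwards. None of the 34 is in the interferon list, which holds other chemokines such as Cxcl9 (-5.11). That list is not complete, so members of the 34 can still respond to interferon, which was not tested. Of 10 complement genes 7 overlapped, 1 was higher, Cd55 (0.76), and 2 lower, C2 (-1.31) and C4b, which stood at 18.7, 21.1 and 13.3 against 1.86 and 8.32 CPM.

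At the median, muscle genes were higher in the low library of the WT label and near 0 in that of the Prdm16 label, and the difference between the labels was not tested. Of 36 sarcomere genes 29 overlapped, 7 (19.4%) were higher in both low libraries and 0 lower, beside 13.5% and 13.1% over all genes beyond interferon. The median was 0.71, with 0.93 within the WT label and 0.02 within the Prdm16 label, 0.38 without WT replicate 1 and 1.17 without Prdm16 replicate 1. Ttn, the giant spring of the sarcomere, stood at 45.6, 104 and 265 against 331 and 485 CPM, so the high library Prdm16 replicate 1 was near the low ones. Of 25 myogenic genes 6 (24%) were higher and 2 (8%) lower, with medians of 1.14 and -0.05 within the WT and Prdm16 labels. The lower genes included Musk (-0.42), which organises the nerve contact of muscle. Myod1, the regulator of muscle fate, stood at 5.08, 8.57 and 12.6 against 29.3 and 15.9 CPM and Des, the muscle filament desmin, at 27.8, 31.9 and 80.0 against 103 and 92.8 CPM. Myog overlapped at 31.6, 54.7 and 119 against 129.8 and 86.9 CPM. The summed sarcomere level was 887, 1223 and 2145 CPM in the high libraries and 1938 and 2263 CPM in the low. These sums overlapped between low and high, while both libraries labelled Prdm16 lay above every library labelled WT. The part of muscle cells in the cultures was not tested.

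Cell cycle genes showed a like split between the labels. Of 44 genes 34 overlapped, 9 (20.5%) were higher in both low libraries and 1 (2.27%) lower, beside 13.5% and 13.1% over all genes beyond interferon. The median was 0.26, of 0.61 within the WT label and of -0.10 within the Prdm16 label, and of 0.05 without WT replicate 3 and 0.51 without Prdm16 replicate 2. Rrm2, which makes deoxynucleotides, stood at 104, 100.4 and 136 against 251 and 196 CPM and Ccnd1, the G1 cyclin, at 651, 579.7 and 791 against 888 and 1116 CPM. The lower gene was Cenpf (-0.59), named after its value was seen. Top2a, which untangles DNA in dividing cells, overlapped at 239.9, 198 and 226 against 326 and 189 CPM. Of 25 p53 targets and cell cycle inhibitors 0 were higher and 7 (28%) lower, such as Cdkn2c (-1.09) and Sesn1 (-0.85), while Cdkn1a overlapped at 538, 374 and 407 against 421 and 484 CPM.

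Several lists differed little at the median. Respiratory chain genes had 1 of 43 (2.33%, beside 13.5% over all genes) higher (Atp5b, 0.13) and 3 lower (Ndufb5, Sdhc and Uqcrfs1, none beyond -0.37) with a median of -0.19 (0.02 without Prdm16 replicate 2), and all 8 mitochondrially encoded genes and all 9 Notch genes that passed overlapped. Of 35 genes of the unfolded protein and amino acid response 8 (22.9%) were higher and 0 lower, by small amounts such as 0.57 for Phgdh, the first enzyme of serine synthesis. Of 28 genes of H3K9 methylation and heterochromatin, the machinery whose mark the series maps, 2 (7.14%) were higher, Cbx5 (0.29) and Kdm3a (0.73), a demethylase that is also in the hypoxia list, and 1 was lower, Setdb2 (-0.82), a methyltransferase that is also in the interferon list. The methyltransferases Ehmt1 at 124, 99.1 and 101 against 119 and 92.4 CPM and Ehmt2 at 66.8, 54.0 and 58.5 against 36.9 and 66.6 CPM overlapped, as did the lamin gene Lmnb1.

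Markers of leukocytes and endothelium were few and low, while those of muscle, mural and tendon cells were present in every library. Over all genes beyond interferon 13.5% were higher and 13.1% lower without overlap. Beside these shares, a few such genes in lists this short say little about a cell type. Of 18 macrophage markers 4 passed the filter, summing to 26.9, 22 and 25.9 CPM in the high libraries and 22.3 and 34.7 CPM in the low, and Adgre1, Tyrobp, C1qa and C1qc had 0 counts in all 5 libraries. Of the 4, Csf1r and Mrc1 were higher in both low libraries, Cd68 was lower and Cd14 overlapped, with a median of 0.38. Csf1r and Mrc1 had mean normalized counts of only 10.1 and 7.55. Of 12 endothelial markers 6 passed, summing to 35.8, 32.0 and 30.1 against 22.2 and 22.5 CPM, so both low libraries were below, with Egfl7 lower (-0.83) and Cdh5 overlapping. Of 10 Schwann and neural markers 7 passed, summing to 85.5, 46.0 and 75.3 against 35.1 and 51.7 CPM. Of these 4 overlapped, Ngfr (3.26, 5.86 and 2.56 against 0 and 0.531 CPM) and Cdh19 (-1.49) were lower, and Mbp (0.383, 0.428 and 0.582 against 1.30 and 1.59 CPM) was higher. Of the 16 markers of other leukocytes only Bst2 passed, which is also an interferon gene. Satellite cell and myoblast markers summed to 510, 637 and 525 against 629 and 524 CPM, sums that overlapped and came mostly from Sdc4 and Vcam1. Of the 6 that passed, 5 had a positive difference, the median was 0.68 (1.10 within the WT label and 0.14 within the Prdm16 label), and Myod1 (above) and Megf10 (1.17) were higher by 2-fold without overlap. Of 10 pericyte and mural markers 7 passed, summing to 620, 529 and 675 against 446 and 633 CPM, with Cspg4 (0.35) and Des (above) higher and 5 overlapping. All 8 tenocyte markers that passed overlapped, summing to 271, 233 and 253 against 206 and 345 CPM. Of 7 epithelial markers Krt18 (0.85) and Krt19 (above) passed and both were higher, Krt19 being also among the genes named for the widest gap. The part of these cells in the differences above was not tested.

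**Figure D3:**
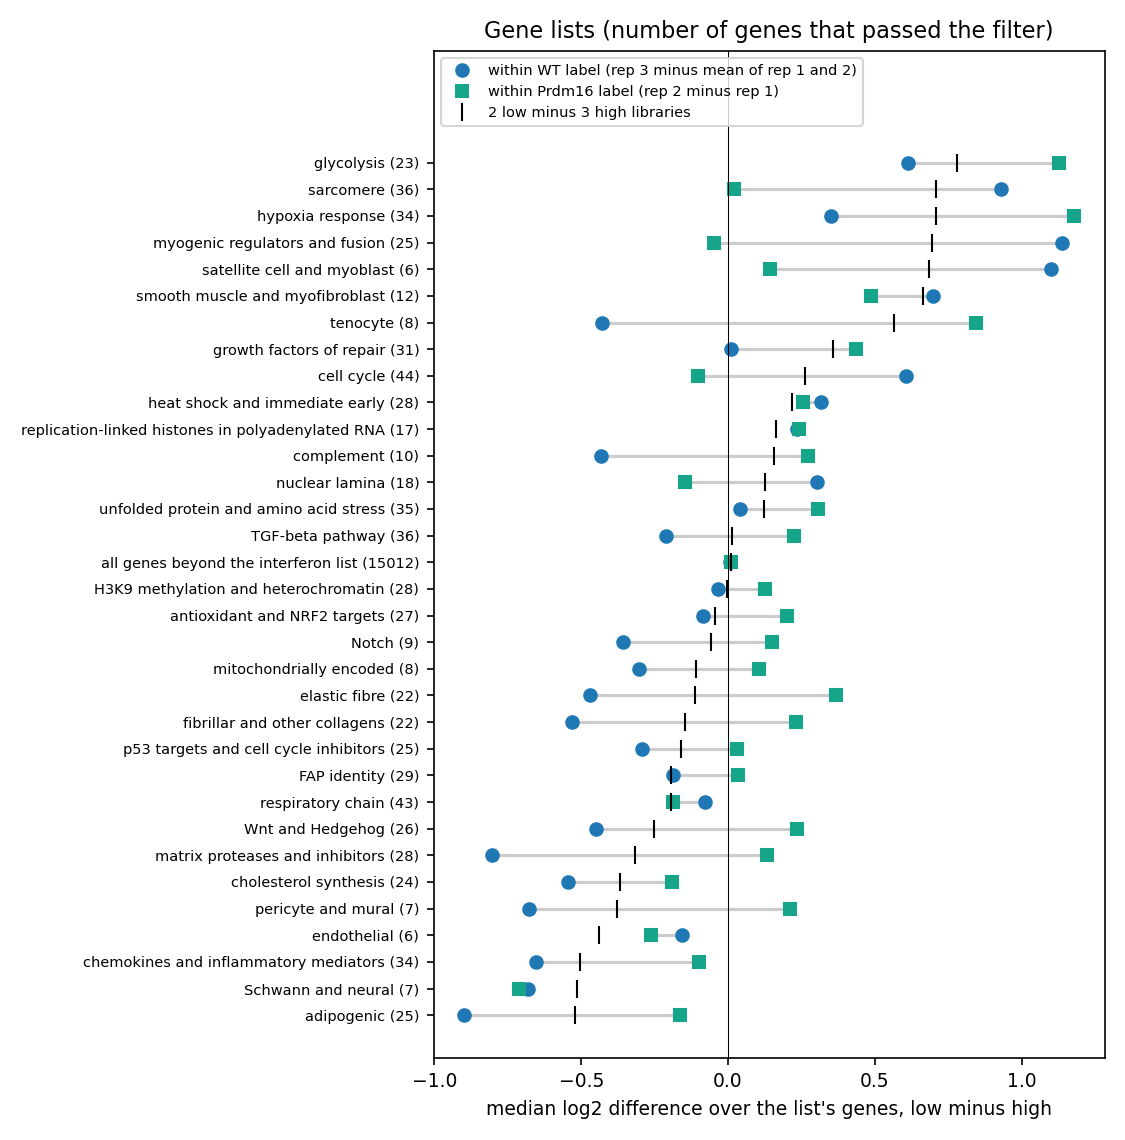
Median log2 difference, low minus high, of each gene list (number of genes that passed the filter in brackets) within the WT label (circles), within the Prdm16 label (squares) and over all 5 libraries (bars). Glycolysis (0.61 and 1.13) and hypoxia response (0.35 and 1.18) lie to the right within both labels, while sarcomere genes lie near 0 within the Prdm16 label (0.93 and 0.02) and collagens on both sides of it (-0.53 and 0.23).

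The low library of each label was set against the high libraries of the same label, which keeps the genotype label constant, and the 2 differences share no library. Within the WT label the difference was WT replicate 3 minus the mean of WT replicates 1 and 2, and within the Prdm16 label it was replicate 2 minus replicate 1. The latter sets 1 library against 1. These also differ in sex-linked genes, with 15 against 4116 counts of Xist and 1322 against 0 counts of Y genes. Across the 15012 genes beyond interferon the 2 differences had a Pearson r of 0.24 and a Spearman rho of 0.20, over genes and so without a p. Interferon genes chose the low library of each label, so their agreement between the labels follows from that choice and is not compared with other genes. Of 1904 genes that differed by at least 2-fold within the WT label, 1227 (64.4%) had the same sign within the Prdm16 label, beside 55.0% of the 13108 other genes. Of the 1904, 343 also differed by at least 2-fold the same way within the Prdm16 label, and 118 did so the opposite way.

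**Figure D4:**
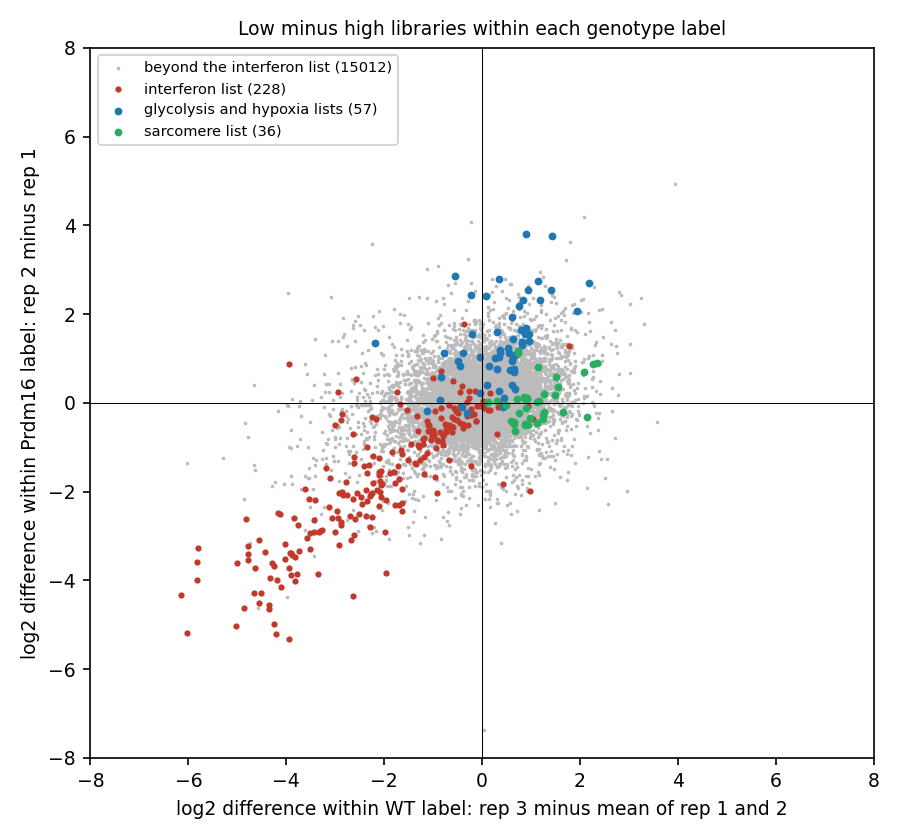
Log2 difference of each gene within the WT label (x axis) and within the Prdm16 label (y axis), low minus high, for genes beyond the interferon list (grey), interferon genes (red), glycolysis and hypoxia genes (blue) and sarcomere genes (green). The place of the red points follows from the choice of libraries by interferon genes. Grey points form a broad cloud (r of 0.24), blue points sit mainly in the upper part and green points along the right of the x axis.

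Domains of H3K9me2, a histone mark of silent chromatin, came from 6 other libraries of the series, 3 labelled WT and 3 labelled Prdm16. They were not used to choose the RNA libraries. Both labels were pooled, so a domain in any library can be that of a single genotype label. A gene was counted in a domain when a share of at least 0.5 of its body was covered. Of the 228 interferon genes 27 (11.8%) were in a domain in any library and 0 were in a domain in all 6. Of the 382 located genes among the 407 that were at least 2-fold lower in the low libraries, 57 (14.9%) were in a domain in any library, beside 837 of 12876 other genes (6.50%). In all 6 libraries the counts were 3 (0.785%) and 81 (0.629%), close to each other. Expression level and gene length were not matched. Of the 429 higher genes too few (299, 69.7%) could be located for a firm share. Of the 299, 37 (12.4%) were in a domain in any library and 9 (3.01%) in all 6. Whether the RNA and the domain libraries came from the same cultures is not given in the labels.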

How the data were processed

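Raw counts of 55341 genes in 5 libraries were taken from the deposited count table, and per the submitters' processing notes STAR 2.7, featureCounts and DESeq2 1.20 were among the tools and GRCm38 among the builds. The sources used here do not state the role of each tool or whether counting used strand. In the deposited normalized table the signal of a gene equalled the counts divided by 1 size factor per library to within 0.0005. The deposited comparison held the authors' log2 fold change with its standard error and the authors' p-value, raw and adjusted. Deposited H3K9me2 domain lists held positions, which were used, and a score by the authors, which was not. LaminB1 domains and input samples were not used here.

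Genes passed edgeR 4.0.16 filterByExpr with the labelled groups (15240 genes, of which 13785 or 90.5% were located in RefSeq GRCm38.p6). Library sizes were adjusted by TMM (trimmed mean of M-values) for CPM, with a prior count of 2 before log2. Genotype by label was tested with edgeR's two-sided quasi-likelihood test in R 4.3.3, Benjamini-Hochberg adjusted with a threshold of 0.05, and the procedure was tested on simulated data. The simulation used the same dispersion for every gene and large changes, so it does not give the power of the test in these libraries. DESeq2 1.42.0 was an alternative and was used to compare p-values with the deposited ones. Low and high libraries were chosen by measured interferon genes, so their differences were described and not tested: a gene differed without overlap when both low libraries lay on the same side of all 3 high libraries, and the gap is the log2 distance between the nearest low and high library. In lists, "higher" and "lower" mean without overlap. The members, the 38 gene lists and the rules were chosen with earlier results of these data known.

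Named genes were the 15 higher and 15 lower genes with the widest gap, beyond the interferon list and averaging 10 CPM or more in 1 of the groups, leaving out Gm and Rik symbols, unnamed IDs, pseudogenes and sex-linked genes. In each list up to 5 members with the widest gap and up to 2 overlapping members with the highest mean were named, with the 6 genes of the score and Prdm16, Pdgfra, Irf7, Ifnar1, Ifnar2, Ifnb1, Hif1a, Myod1, Pparg, Ehmt1, Ehmt2 and Lmnb1. A few genes that the rule names are not reported here. A count of 3 in a library, from 0.281 to 0.514 CPM of its total, is the limit that a count of 0 allows, for counting error only. Alternatives were another scaling (DESeq2 size factors or column totals), a prior count of 0.5, no filter, each library left out, a replicate block and, chosen after seeing the data, leaving out genes whose promoter holds the ISRE core. Figures were drawn with matplotlib 3.10.9 in Python 3.11.15.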

Additional observations from a re-analysis of the deposited data

Results flagged for a closer look

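The median of the 22 elastic fibre genes was higher in the low library of the Prdm16 label, by 0.367 on the log2 scale over Prdm16 replicate 1, and lower in the low library of the WT label, by -0.699 against WT replicate 1 and -0.349 against WT replicate 2. The median of the 10 complement genes did likewise, at 0.271 within the Prdm16 label and at -0.322 and -0.374 against WT replicates 1 and 2. They are given here because both differences within the WT label had the opposite sign to the difference within the Prdm16 label. All of these differences were also beyond 0.25 in size. Other lists split between the labels too but fell short of that limit within the Prdm16 label. Examples are collagens (-0.772 and -0.582 against 0.231) and cell cycle genes (0.567 and 0.61 against -0.103). The difference between the labels was not tested.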

How the results depend on the processing

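By label, the count of called genes was 1 with DESeq2, 25 without the filter on low counts and from 0 to 4 with each library left out; the 4, without Prdm16 replicate 1, were Xist, Eif2s3y, Uty and Ddx3y. With the replicate number as a replicate block 1 gene was called, Ttn (log2 fold change 2.38, edgeR adjusted p 0.016). The labels do not say whether the numbers pair the libraries. Deviations from the label means correlated at 0.209 for replicates 1 and at -0.202 for replicates 2. WT replicate 3, with no partner, correlated at 0.356 with Prdm16 replicate 2. These values cannot decide on pairing, because the deviations of the Prdm16 libraries mirror each other and the interferon genes were included.

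Of genes at least 2-fold higher in the low libraries, 864 were counted without the filter and 334 to 891 with each library left out, and of those lower, 709 without the filter and 409 to 1042. Leaving out genes with the ISRE core gave 406 and 375. The share with the same sign within both labels was 55.4% without the filter.

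With each library left out, list medians ran from 0.604 to 0.91 for glycolysis, -0.445 to 0.183 for elastic fibre, -0.212 to 0.137 for TGF-beta, -0.622 to 0.28 for complement, -0.395 to -0.00784 for p53 targets, -0.586 to -0.167 for cholesterol synthesis and 0.0773 to 0.332 for the unfolded protein response. They ran from -0.00176 to 0.501 for growth factors, -0.0569 to 0.114 for H3K9 methylation, -0.437 to 0.266 for endothelial, -0.862 to 0.284 for pericyte, 0.331 to 1.2 for satellite cell and -0.436 to 1.32 for tenocyte genes. Over the 9 settings, 15 of 32 list medians changed sign at least once, glycolysis, hypoxia response, cholesterol synthesis, adipogenic and sarcomere not among them. For the 213 named genes examined, 1578 of 1697 values moved by less than the spread between libraries, 119 by more, and 0 called values changed sign. With a library left out, that 0 largely follows from the choice of genes without overlap and is not a sign of stability. The cause of these shifts was not tested, beyond the fewer libraries or the added low-count genes of each setting.

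Depth limits the genes near 3 counts, the most that a count of 0 allows, such as the interferon ligands and Cfd, and the number of libraries (2 low, 3 high) limits all others.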
